A study of Mus musculus with 6 samples.

Results

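Macrophages are recognised by a small set of genes. Csf1r encodes the receptor for the growth factor CSF1 on which most tissue macrophages depend, and Adgre1 encodes the F4/80 antigen by which mouse macrophages are stained. Clec4f, Vsig4 and Cd5l are known for Kupffer cells, the resident macrophages of the liver sinusoids, which take up particles, complement-coated microbes and worn red cells. Treml4 is an immunoglobulin-like receptor of some macrophages, dendritic cells and non-classical monocytes. Maf encodes a transcription factor of mature macrophages that T and other lymphoid cells also use, Vcam1 an adhesion molecule of endothelial cells and of iron-recycling macrophages, and Lyz2 the lysozyme of monocytes, macrophages and neutrophils.

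These 9 genes were looked up by symbol among the 57180 genes of the deposited table, and each had 1 entry. They were measured by RNA sequencing in liver NK cells of male C57BL/6J mice aged 6 to 8 weeks in which CCl4 had caused fibrosis (2.5 ml/kg of a 20% solution in olive oil, 2 times a week over 4 weeks, livers taken 48 h after the last dose). Both groups came from such mice and from the same gate, CD3- NK1.1+ cells, and differed in the surface protein CD36, a fatty acid and lipoprotein receptor: 3 samples are titled CD36+ NK and 3 CD36- NK. The design text calls them biological triplicates, but no source says whether each came from its own mouse, so the p-values measure the spread between these samples, and no macrophage antigen is named in the gate. The comparison asks how the expression profile of NK cells with CD36 differs from that of NK cells without it.

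The libraries held from 10292480 to 13787189 counts, and 3 counts, the smallest level taken as measurable, came to between 0.221 and 0.293 CPM (counts scaled to the same total after correction for composition). This floor covers counting error only. Cd36 itself ranged from 109.7 to 262.6 CPM among CD36+ NK libraries and from 14.3 to 31.7 CPM among CD36- NK libraries, so that the titles held in all 6 libraries. Klrb1c, the gene of the NK1.1 antigen, ranged from 77.9 to 106 CPM among CD36+ NK libraries and from 448 to 524 CPM among CD36- NK libraries, and the summed level of 10 NK lineage genes was 919 to 1087 against 4449 to 5536 CPM. In bulk RNA such as this, fewer cells of a type and less RNA per cell cannot be told apart.

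Of the 9 macrophage identity genes, Csf1r, Adgre1 and Treml4 rose in CD36+ NK by 3.72-, 5.04- and 7.18-fold. Maf was 1.70-fold higher and passed the test on p but not the fold threshold. Among the 7 that passed the filter on low counts and were tested, Vcam1 and Cd5l had the largest fitted differences, 7.62- and 7.47-fold. These 2 did not pass the test. Lyz2, at the highest level of the 9, averaged 3962 ± 425 CPM over the CD36+ NK libraries and 3709.9 ± 1451 CPM over the CD36- NK libraries (SD, n = 3 each). Clec4f and Vsig4 were seen almost wholly in 1 library of CD36+ NK and had too few counts elsewhere to pass the filter on low counts. A gene was called differentially expressed (a DEG) at an adjusted p below 0.05 (edgeR's quasi-likelihood test, Benjamini-Hochberg adjustment over 14761 tested genes) with a fold change above 2. Thus 3 of the 7 tested genes were higher DEGs, where 2.98% of all tested genes were, and 4 of 7 were higher on the adjusted p at any fold, where 5.07% of all tested genes were. In 6 of the 7 every CD36+ NK library lay above every CD36- NK library, as in 17.0% of all tested genes. None was called lower, on the DEG rule or on the adjusted p alone, where 2.98% and 5.44% of all tested genes were, and none lay wholly below, as 15.7% did. DEGs of either direction made up 5.96% of tested genes. The median log2 fold change of the 7 was 2.33, and that of all tested genes 0.01.

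**Figure D1:**
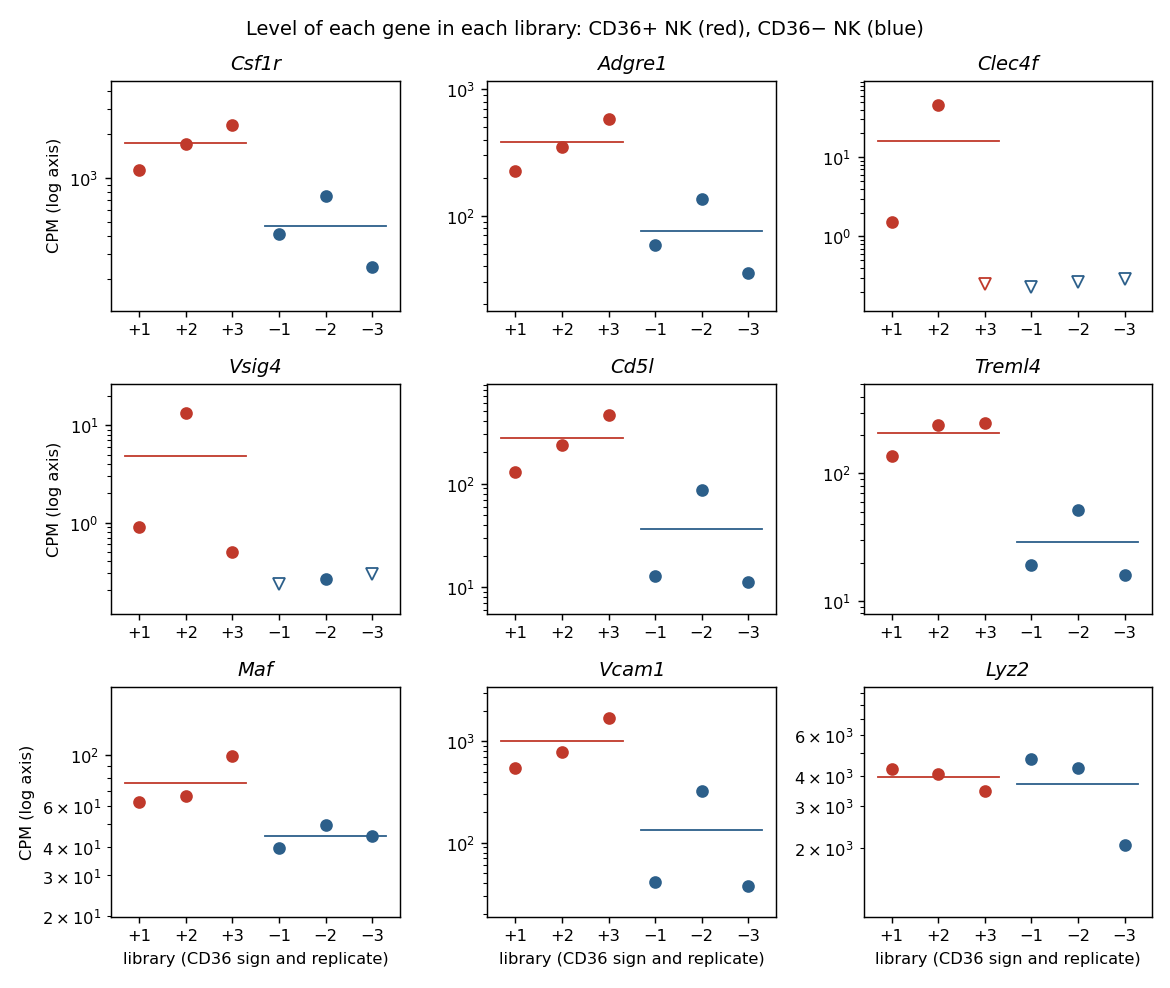
Level of each of the 9 genes in each library, in CPM on a log axis, with CD36+ NK in red, CD36- NK in blue and a line at each group mean. Open triangles mark libraries with no count, drawn at the level of 3 counts. The groups are apart in Csf1r, Adgre1, Cd5l, Treml4, Maf and Vcam1, they overlap in Lyz2, and Clec4f and Vsig4 stand out in CD36+ NK replicate 2.

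Csf1r (ENSMUSG00000024621; chromosome 18, from 61233670 to 61265221, plus strand, in the coordinates of the table, which names no genome build) had 12782, 23452 and 28169 counts in CD36+ NK replicates 1 to 3 and 5340, 8465 and 2477 counts in CD36- NK replicates 1 to 3. These were 1138, 1726 and 2342 CPM in CD36+ NK, and 411, 748 and 242 CPM in CD36- NK. All 3 CD36+ NK libraries were above all CD36- NK libraries, and the nearest of them, CD36+ NK replicate 1 and CD36- NK replicate 2, were 1.52-fold apart. The log2 fold change was 1.89 (standard error 0.435, edgeR adjusted p = 0.0378). The end of Csf1r overlaps Hmgxb3 on the other strand, which had 479 to 727 counts in each library, and whether the counting used strand is not given in the sources used here.

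Adgre1 (ENSMUSG00000004730; chromosome 17, from 57665691 to 57790527, plus strand) followed the same order of libraries as Csf1r. It was at 225, 348 and 581 CPM in CD36+ NK replicates 1 to 3 and at 58.6, 135 and 35.6 CPM in CD36- NK replicates 1 to 3. In both genes CD36+ NK replicate 3 was the highest library and CD36- NK replicate 3 the lowest. For Adgre1 the fitted log2 difference was 2.33 with a standard error of 0.540 (edgeR adjusted p = 0.0386).

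Treml4 (ENSMUSG00000051682; chromosome 17, from 48571323 to 48582388, plus strand) was at 137, 239.6 and 251 CPM in CD36+ NK replicates 1 to 3. In CD36- NK it was at 19.3, 52.2 and 15.9 CPM. The groups did not overlap, and CD36+ NK replicate 1 was 2.63-fold above CD36- NK replicate 2, the widest such gap among the 7 tested genes. The log2 fold change was 2.84 (standard error 0.483, edgeR adjusted p = 0.0145).

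The 3 calls depended on single libraries. All 3 were kept without CD36+ NK replicate 1, and without CD36- NK replicate 2, when Cd5l and Vcam1 were called as well. With either CD36+ NK replicate 2 or replicate 1 of CD36- NK left out, none of the 3 passed edgeR's test, with adjusted p of 0.101 and 0.125 for Csf1r, 0.0956 and 0.129 for Adgre1 and 0.0545 and 0.0630 for Treml4. At an unadjusted p below 0.05, 6 of 7 tested members were higher in the first of these fits and 6 of 8 in the second, where 11.5% and 12.3% of all tested genes were. With replicate 3 of either group left out, edgeR called Treml4 (adjusted p = 0.0498 and 0.0495), and not Csf1r (0.117 and 0.0838) or Adgre1 (0.115 and 0.1004). The log2 fold changes over all fits that left out 1 library ran from 1.57 to 2.41 for Csf1r, from 1.91 to 3.02 for Adgre1 and from 2.54 to 3.56 for Treml4.

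**Figure D2:**
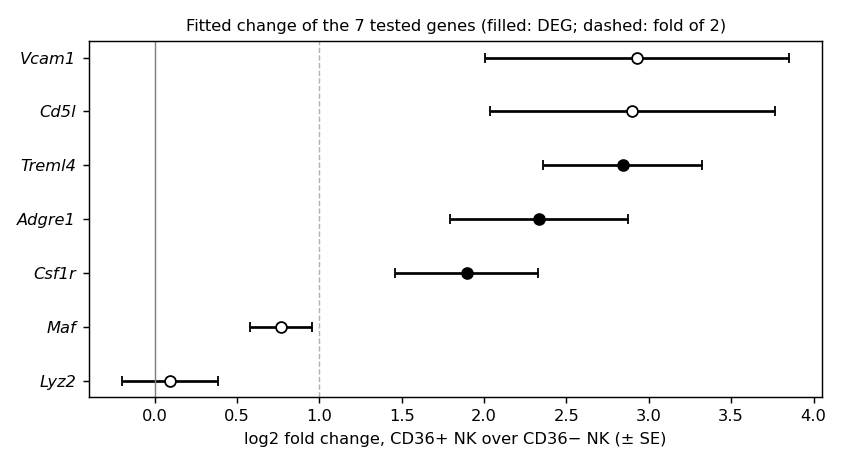
Fitted log2 fold change (CD36+ NK over CD36- NK) of the 7 tested genes, with bars for the standard error. Filled points are DEGs, open points are not, and the dashed line is a fold of 2. The bars of Vcam1 and Cd5l are the widest, with standard errors of 0.922 and 0.867.

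Vcam1 (ENSMUSG00000027962; chromosome 3, from 115903598 to 115923337, minus strand) was at 546, 789 and 1696 CPM in CD36+ NK replicates 1 to 3 and at 40.8, 319.8 and 37.3 CPM in CD36- NK replicates 1 to 3. The groups did not overlap, but CD36- NK replicate 2 was 8.19-fold above the mean of the other CD36- NK libraries. The log2 fold change was 2.93 (standard error 0.922, edgeR adjusted p = 0.0911). Without CD36- NK replicate 2 it was 4.69 with an edgeR adjusted p of 0.00729. In the fits that left out 1 of the other libraries it lay between 2.33 and 3.22, with edgeR adjusted p from 0.0884 to 0.238.

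Cd5l, which encodes a secreted scavenger protein of macrophages (ENSMUSG00000015854; chromosome 3, from 87265188 to 87278380, plus strand), had the same shape. It was at 129, 237 and 454 CPM in CD36+ NK replicates 1 to 3 and at 12.99, 85.8 and 11.1 CPM in CD36- NK replicates 1 to 3. CD36- NK replicate 2 was 7.11-fold above the mean of the other CD36- NK libraries, and 1.51-fold below CD36+ NK replicate 1. The log2 fold change was 2.90 (standard error 0.867, edgeR adjusted p = 0.0782). It passed the threshold without CD36- NK replicate 2 (log2 fold change 4.49, edgeR adjusted p = 0.00887) and with DESeq2 (adjusted p = 0.0321). With 1 of the other libraries left out it did not pass, at log2 fold changes between 2.32 and 3.23 and edgeR adjusted p from 0.0668 to 0.212. In the other 5 tested members CD36- NK replicate 2 stood out less from the rest of its group, by 2.96-fold in Treml4, 2.86-fold in Adgre1, 2.29-fold in Csf1r, 1.27-fold in Lyz2 and 1.18-fold in Maf. These ratios are a description of single libraries and were not tested.

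Maf (ENSMUSG00000055435; chromosome 8, from 116409681 to 116434533, minus strand) was at 62.6, 66.4 and 98.9 CPM in CD36+ NK replicates 1 to 3 and at 39.7, 49.7 and 44.6 CPM in CD36- NK replicates 1 to 3. The groups did not overlap and lay close to each other. Its log2 fold change was 0.77 (standard error 0.190, edgeR adjusted p = 0.0471), below the fold threshold. Its adjusted p was above 0.05 in 5 of the 6 fits that left out 1 library, and 0.0350 without CD36+ NK replicate 1. It was also above 0.05 in edgeR's fit with no filter on low counts (adjusted p = 0.0619).

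Proteins of the MAF family bind a palindrome of paired half-sites, and PU.1, the myeloid ETS factor, binds purine-rich sites. RefSeq promoters (GRCm38.p6, cut here to the 250 bases before the start) were found for 5 of the 9 genes, Clec4f, Vsig4, Cd5l, Treml4 and Lyz2. They were searched on both strands for the palindrome, TGCTGA followed after 2 or after 1 open bases by TCAGCA, for the half-site TGCTGA alone, which overlaps it, and for GAGGAA, a PU.1-type core. The search was chosen after the Cd5l sequence had been read. Cd5l, whose RNA was in all 6 libraries, and Clec4f, whose RNA was in 2, are shown because both are Kupffer cell genes and their levels across the libraries differed. Capitals mark the matches.
Cd5l (chr3:87357631-87357880, plus strand): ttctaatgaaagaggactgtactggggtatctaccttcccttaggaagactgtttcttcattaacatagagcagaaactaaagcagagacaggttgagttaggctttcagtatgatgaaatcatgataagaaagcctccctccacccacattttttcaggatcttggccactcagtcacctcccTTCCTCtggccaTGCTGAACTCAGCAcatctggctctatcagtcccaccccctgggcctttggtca
Clec4f (chr6:83656117-83656366, minus strand): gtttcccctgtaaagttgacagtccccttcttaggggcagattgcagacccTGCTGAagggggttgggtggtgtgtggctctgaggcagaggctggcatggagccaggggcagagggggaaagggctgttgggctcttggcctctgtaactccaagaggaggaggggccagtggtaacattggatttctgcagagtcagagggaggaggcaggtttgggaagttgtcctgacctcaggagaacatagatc
The palindrome with 2 open bases stood in the Cd5l promoter, beginning 54 bases before the start, and in 2 of 32851 promoters in all (0.00609%), the other being that of Gm33479. The palindrome with 1 open base was in 2 other promoters and in none of the members. The half-site was in the Clec4f, Cd5l and Lyz2 promoters and in 16.1% of all promoters, and GAGGAA was in the Vsig4, Cd5l and Treml4 promoters and in 23.3% of all. A match is a description of the letters and shows no binding.

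Clec4f (ENSMUSG00000014542; chromosome 6, from 83621524 to 83633169, minus strand), which encodes a galactose-binding lectin found on Kupffer cells, had 17, 624 and 0 counts in CD36+ NK replicates 1 to 3 and 0 counts in each CD36- NK library. The 624 counts in CD36+ NK replicate 2 were 45.9 CPM and the 17 counts in CD36+ NK replicate 1 were 1.51 CPM. A count of 0 allowed up to 0.249 CPM in CD36+ NK replicate 3, and between 0.231 and 0.293 CPM in the CD36- NK libraries. CD36+ NK replicate 3, the library highest in Csf1r, Adgre1, Cd5l, Vcam1 and Maf, thus had no Clec4f count.

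Vsig4 (ENSMUSG00000044206; chromosome X, from 95290809 to 95337044, minus strand), which encodes the complement receptor CRIg, had 10, 181 and 6 counts in CD36+ NK replicates 1 to 3 and 0, 3 and 0 counts in CD36- NK replicates 1 to 3. CD36+ NK replicate 2 was again the high library, at 13.3 CPM, and the others were at 0.890 CPM or less. Neither gene passed the filter on low counts. When all genes with a count were fitted, the edgeR adjusted p was 0.214 for Clec4f and 0.116 for Vsig4, and without CD36+ NK replicate 2 it was 0.358 and 0.316. That library also had the highest Alb, a hepatocyte gene, at 7.80 CPM against 0 to 2.67 CPM in the others, and the highest Folr2, a macrophage folate receptor, at 4.49 CPM against 0 to 0.831 CPM. The part of these in the Clec4f and Vsig4 values was not tested.

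**Figure D3:**
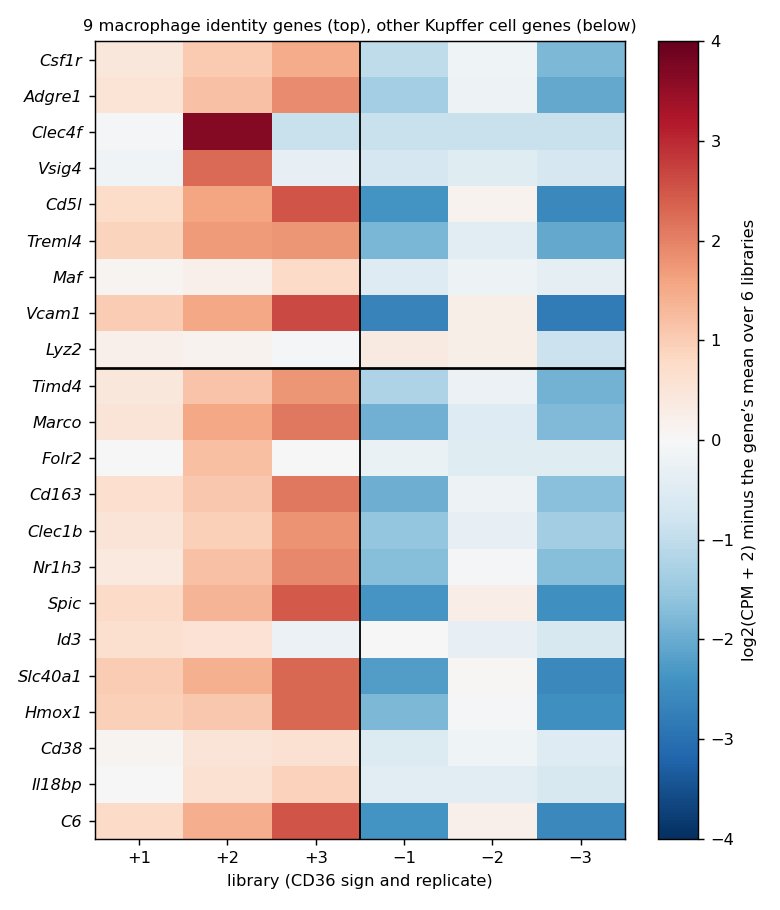
Level of the 9 genes (top) and of 13 other Kupffer cell genes (below) in each library, as log2(CPM + 2) minus the mean of the gene over the 6 libraries, red above and blue below. Most rows are red in CD36+ NK, palest in replicate 1 and darkest in replicate 3, and pale in CD36- NK replicate 2. Clec4f, Vsig4 and Folr2 are darkest in CD36+ NK replicate 2, and Lyz2 is blue only in CD36- NK replicate 3 and faintly in CD36+ NK replicate 3.

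Lyz2 (ENSMUSG00000069516; chromosome 10, from 117113236 to 117118226, minus strand) was at 4305, 4096 and 3486 CPM in CD36+ NK replicates 1 to 3 and at 4747, 4330.1 and 2052 CPM in CD36- NK replicates 1 to 3. The highest and the lowest library were both CD36- NK, and the groups overlapped. Its log2 fold change was 0.09 (standard error 0.292, edgeR adjusted p = 0.882), and without CD36- NK replicate 3 it was -0.20. Lyz1, the neighbouring copy of the gene, was at 3.03 to 7.52 CPM. Of the windows of 50 bases in the Lyz2 transcript 15.4% occur unchanged in that of Lyz1, and of those of 100 bases 1.97%. Counts from such stretches could fall to either copy, and these are shares of windows, not of counts.

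The proportion of Lyz2 to each other member was compared between the groups. The log2 ratio of Lyz2 to Csf1r (CPM plus 2) was 1.92, 1.25 and 0.57 in CD36+ NK replicates 1 to 3 and 3.53, 2.53 and 3.07 in CD36- NK replicates 1 to 3. The ratio was lower in every CD36+ NK library. Its group means differed by -1.80 for Csf1r, -2.22 for Adgre1, -2.71 for Treml4, -3.05 for Cd5l and -3.29 for Vcam1. Each of these 5 had p = 0.1 in a two-sided exact permutation test, the smallest that 3 against 3 allows, and 0.16 after Benjamini-Hochberg adjustment over 8 ratios. The difference was -0.54 for Maf (exact permutation p = 0.4), and it was -0.25 without CD36+ NK replicate 3, -0.23 without CD36- NK replicate 1 and -0.92 without CD36- NK replicate 3. For Clec4f and Vsig4 most libraries lay below the 2 CPM that were added, so the ratio depended on that number. With 2 CPM the differences were -1.62 and -1.02 (exact permutation p = 0.3 and 0.4), with 0.5 CPM they were -2.67 and -2.03 (exact permutation p = 0.2 and 0.1), and with 2 CPM but without CD36+ NK replicate 2 they were -0.25 and -0.21.

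The summed level of the 9 genes, 6545 to 8909 CPM in CD36+ NK and 2439 to 5721 CPM in CD36- NK, includes Lyz2, the member with the most counts in every library. Without Lyz2 the sum of the other 8 was 2239.9, 3465 and 5423 CPM in CD36+ NK replicates 1 to 3 and 582, 1391 and 387 CPM in CD36- NK replicates 1 to 3. Every CD36- NK library thus held counts of most of these genes, since 7, 8 and 7 of the 9 had a count in replicates 1 to 3.

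Levels of different genes can be compared only per length, for which the FPKM values of the authors (fragments scaled by gene length and library total) were used. In CD36+ NK, Lyz2 was at 2970.5 ± 397 FPKM (SD, n = 3), Csf1r at 219.7 ± 70.5, Cd5l at 131 ± 75.9, Vcam1 at 102 ± 58.4, Adgre1 at 94.4 ± 41.8, Treml4 at 57.9 ± 16.2 and Maf at 7.77 ± 1.82. Lyz2 stood far above the rest and Maf below the other tested members in each of these libraries. The genes share their libraries, and within each of the 3 CD36+ NK libraries Csf1r was above Cd5l, and Cd5l above both Vcam1 and Adgre1, whereas Vcam1 and Adgre1 changed places between libraries. In CD36- NK, Lyz2 was at 2862 ± 1142 FPKM, Csf1r at 61.5 ± 35.0, Adgre1 at 19.6 ± 13.6, Cd5l at 18.4 ± 21.6, Vcam1 at 14.1 ± 17.4, Treml4 at 8.40 ± 5.91 and Maf at 4.72 ± 0.584. In each of the 3 CD36- NK libraries Csf1r was above Adgre1 and Adgre1 above Treml4, while Cd5l was above Adgre1 in replicate 2 and below it in the others. Mean FPKM of Clec4f and Vsig4 in CD36+ NK, 5.55 and 2.71, came almost wholly from replicate 2, at 16.1 and 7.35.

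The names of the sequencing libraries take 2 forms, with the number first in replicate 1 of both groups and last in the other 4 libraries, and the labels do not say what this marks. Between the libraries with the number first, log2(CPM + 2) in CD36+ NK exceeded that in CD36- NK by 1.47 for Csf1r, 1.91 for Adgre1, 2.71 for Treml4, 3.13 for Cd5l, 3.68 for Vcam1 and 0.63 for Maf, with 1 library a group and no test. Between those with the number last the differences of means were 2.23, 2.65, 2.99, 3.28, 3.37 and 0.76. The direction was the same in both forms for these 6 genes, and for Lyz2 it was not, at -0.14 and 0.34. With the form as a block in the fit, edgeR called Csf1r, Adgre1 and Treml4, as it did without it.

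The genes whose levels were most like those of each member were taken from the tested genes with a mean of at least 10 CPM (10008 for a tested member, 10009 for Clec4f and Vsig4), by Pearson correlation of log2(CPM + 2) over the 6 libraries. These r values describe 6 libraries that fall in 2 groups, and have no p. Csf1r was most like Cd300a, Gm15931 and Hpgd, with r = 0.999 for each. Adgre1 was most like Hpgd, Ctsb and Itgb5 (r = 0.999 for Itgb5). The nearest genes of Treml4 were Ear2, Cd300e and Tnip2. For Cd5l they were Kcnj10, C6 and Slco2b1, and for Vcam1 they were Ccr3, Fcna and Spic. The nearest genes of Maf were Zfp61 (r = 0.997), Gna12 and Renbp, and those of Lyz2 were Alyref2, Snrnp27 and Limd2. Clec4f was most like Rabep2 (r = 0.974), Tmc6 and Aida, and Vsig4 most like Aida (r = 0.974), Tmc6 and Eme2. Clec4f and Vsig4 were closer to each other (r = 0.994) than to any of these, but both lay below 10 CPM on average and were not among the genes compared.

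Other genes of Kupffer cells were taken from a list of 13, of which 12 were tested. Of these 4 were higher DEGs, 0 lower and 8 not called, where 2.98% of all tested genes were higher DEGs. All 12 fold changes were positive, as were 7658 of all 14761. In 11 every CD36+ NK library lay above every CD36- NK library, as in 17.0% of all tested genes. The median log2 fold change was 2.71. The DEGs were Marco, a scavenger receptor (log2 fold change 3.50), Clec1b, a C-type lectin receptor (2.83), Cd163, the haemoglobin scavenger receptor (2.67), and Il18bp, which encodes a decoy for interleukin 18 (1.33). The genes of the list with the highest mean CPM, which is not corrected for length, were Hmox1, the haem-degrading enzyme, and Slc40a1, the iron exporter ferroportin. Hmox1 was at 654, 712 and 1632 CPM in CD36+ NK replicates 1 to 3 and at 93.9, 315 and 59.4 CPM in CD36- NK replicates 1 to 3. These genes had log2 fold changes of 2.68 and 2.81 with edgeR adjusted p of 0.0501 and 0.0604, and missed the threshold. Timd4, a phosphatidylserine receptor of resident macrophages, ranged from 8.28 to 23.6 CPM among CD36+ NK libraries and from 0 to 4.42 CPM among CD36- NK libraries (edgeR adjusted p = 0.0778).

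Among 18 further macrophage genes, all tested, 4 were higher DEGs, 1 was a lower DEG and the median log2 fold change was 1.68. Of all tested genes 2.98% were higher DEGs and 2.98% lower. The higher DEGs were Sirpa, the receptor for CD47 (log2 fold change 2.53), Ctsb, a lysosomal protease (1.96), Cd14, the lipopolysaccharide co-receptor (1.70), and Cd68, a lysosomal membrane protein (1.53). The lower DEG was Itgam, which encodes CD11b, an integrin chain that NK cells also carry, at -1.08. The complement genes C1qa, C1qb and C1qc had log2 fold changes of 2.91, 2.87 and 2.92 and adjusted p between 0.0527 and 0.0576 in edgeR's test. Trem2 and Gpnmb, genes of lipid-laden macrophages, were not called. Mean Trem2 was 7.13 ± 0.417 CPM for CD36+ NK and 6.99 ± 2.84 CPM for CD36- NK, and mean Gpnmb 5.58 ± 2.58 and 6.40 ± 4.03 CPM (SD, n = 3 each).

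Of 17 transcription factors of macrophages 3 were higher DEGs and 0 lower, where 2.98% of all tested genes were called in each direction. Their median log2 fold change was 0.71. Cebpb, a factor of myeloid cells, rose with a log2 fold change of 1.27 (edgeR adjusted p = 0.01005), and Mitf, a factor of lysosomal genes, with one of 2.46 (edgeR adjusted p = 0.0373). Spi1, the gene of PU.1, and Irf5 passed on the adjusted p alone, as Maf did, with log2 fold changes of 0.71 and 0.61. Spic, which directs the iron-recycling macrophage programme, had a log2 fold change of 2.73 and an adjusted p of 0.0956 in edgeR's test. Of 10 genes of the CSF1 receptor pathway, 9 were tested and Csf1r alone was a DEG. The ligand gene Csf1 ranged from 12.3 to 26.3 CPM among CD36+ NK libraries and from 16.2 to 19.4 CPM among CD36- NK libraries (log2 fold change -0.03), and Il34, which encodes the other ligand, had at most 0.178 CPM, below the floor.

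**Figure D4:**
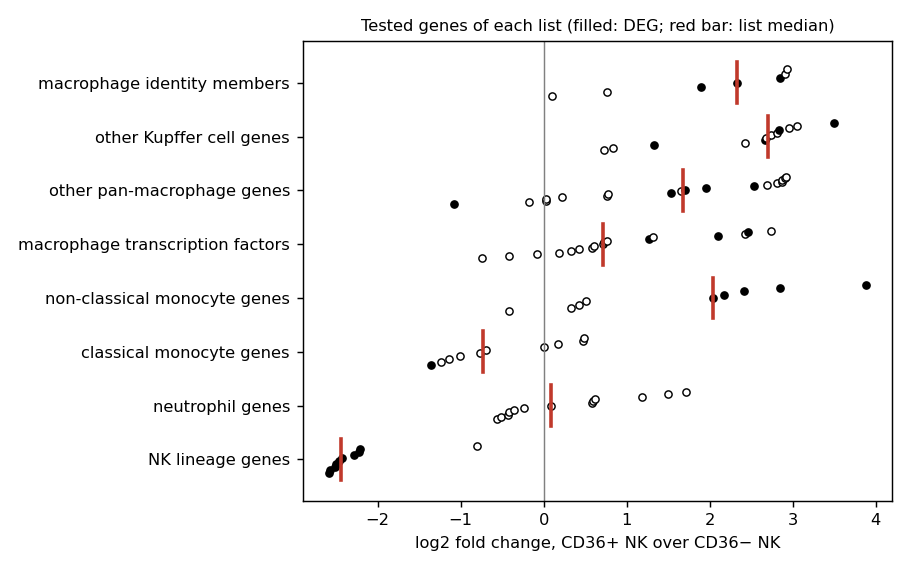
Log2 fold change (CD36+ NK over CD36- NK) of each tested gene in 8 lists, with filled points for DEGs, open points for other genes and a red bar at the median of each list. The medians of the macrophage and Kupffer cell lists and of the non-classical monocyte list lie above 1.6, that of the macrophage transcription factors at 0.71, and those of classical monocytes, neutrophils and NK lineage genes at -0.73, 0.09 and -2.45.

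Several members are also genes of other cells, so lists of those cells were read in the same fit. Non-classical monocytes, which patrol vessels and express Treml4, had 9 tested genes with a median log2 fold change of 2.04. Of these 5 were higher DEGs, namely Fabp4 (log2 fold change 3.88), Treml4, Adgre4 (2.42), Eno3 (2.18) and Ace (2.04), where 2.98% of all tested genes were. Nr4a1, Cx3cr1, Spn and Pglyrp1 were not called. The classical monocyte list, whose cells express Lyz2, had a median of -0.73 over 10 tested genes, with Ccr2 a lower DEG (log2 fold change -1.35). Its summed level was 1736 to 2791 CPM in CD36+ NK and 1966 to 3214 CPM in CD36- NK. Of the neutrophil list 0 of 13 genes was called by edgeR and 1, Csf3r, had an unadjusted p below 0.05. Its summed level was 5759 CPM in CD36+ NK replicate 1 and 949.7 to 1205 CPM in the other CD36+ NK libraries, against 1967 to 4758 CPM in CD36- NK.

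Vcam1 is a gene of endothelial and stellate cells as well. Of 11 genes listed for sinusoidal endothelial cells 7 were tested, and all 7 fold changes were positive (median log2 fold change 1.20). Of the 7, 1 was a higher DEG, where 2.98% of all tested genes were. This was Dnase1l3, which encodes a secreted DNase that dendritic cells and macrophages also make, with 59.5 to 98.5 CPM across CD36+ NK libraries and 15.9 to 32.4 CPM across CD36- NK libraries (edgeR adjusted p = 0.0176). Pecam1, the adhesion molecule CD31, passed on the adjusted p alone (log2 fold change 0.38, edgeR adjusted p = 0.0473). Stab2, which encodes a hyaluronan receptor, ranged from 32.8 to 89.0 CPM among CD36+ NK libraries and from 2.54 to 17.2 CPM among CD36- NK libraries, and Cdh5, the cadherin of endothelial junctions, from 1.58 to 5.59 and from 0.488 to 0.973 CPM, and neither passed the test (edgeR adjusted p = 0.0586 and 0.0885). The 4 genes not tested, Clec4g, Lyve1, Oit3 and Gpr182, were at 0 to 0.831 CPM in every library. The list's summed level was 439.9 to 598 CPM in CD36+ NK and 319 to 376 CPM in CD36- NK.

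Of 10 genes listed for stellate cells 3 were tested, and all 3 fold changes were positive. Of the 3, 1 was a higher DEG, where 2.98% of all tested genes were. This was Pdgfrb, a receptor for platelet-derived growth factor, with 2.05 to 2.99 CPM across CD36+ NK libraries and 0.195 to 0.796 CPM across CD36- NK libraries (log2 fold change 2.503, edgeR adjusted p = 0.0188). Its CD36- NK values rested on 5, 9 and 2 counts in replicates 1 to 3, the last below the floor of 3 counts. Hgf, the hepatocyte growth factor gene, had 13.4 to 22.6 CPM and 5.96 to 11.2 CPM (edgeR adjusted p = 0.0525), and Reln had 2.41 to 5.87 CPM and 1.95 to 4.77 CPM. The 7 genes not tested, Dcn, Lrat, Col1a1, Col1a2, Col3a1, Des and Rgs5, were at 0 to 0.915 CPM in every library. The summed level of the list was 22.3 to 30.8 CPM in CD36+ NK and 8.79 to 15.4 CPM in CD36- NK. The part of endothelial or stellate cell RNA in the Vcam1 values was not tested.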

How the data were processed

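Per the labels and the study's methods, the authors filtered reads with Seqtk, mapped them with HISAT2 2.0.4 and counted fragments per gene with StringTie. The submitters' processing notes name a rat assembly, while the deposited table holds mouse Ensembl genes. The deposited counts are whole fragments per gene, not normalized, and the FPKM values deposited by the authors were used only for levels between genes. Lines of 2 genes that were broken in the table were rejoined. Samples were grouped by title. The sign of CD36 is written differently in the library names, which were matched to titles through the labels, and the CD36- NK titles 1 to 3 belong to libraries numbered 6, 1 and 2.

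Counts were fitted with edgeR 4.0.16 in R 4.3.3 (TMM, filterByExpr with a minimum count of 10, glmQLFit, glmQLFTest, no block), which left 14761 of 57180 genes. The biological coefficient of variation was 20.3%. Standard errors are the fitted log2 fold change over the square root of F. CPM used TMM library sizes, and log2 levels and ratios a pseudocount of 2 CPM. Libraries of a group differed by more than sampling noise (chi-square per degree of freedom 15.0 to 29.6). Scripts were tested on simulated data. The 9 genes and the other lists were chosen with earlier results of these data known. Named were the 9 genes, Cd36, genes of the lists (the most expressed and the called ones of lowest p, and others as markers) and the 3 genes most correlated with each member. Promoter motifs were chosen after the sequences had been read. Alternatives were DESeq2 1.42.0, other scalings and filters, blocks and leaving out each library. The values of 1 gene of the transcription factor list are not reported here.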

Additional observations from a re-analysis of the deposited data

How the results depend on the processing

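The direction of Csf1r, Adgre1, Cd5l, Treml4, Maf and Vcam1 was the same under every alternative run. Lyz2, at 0.09, turned to -0.20 without CD36- NK replicate 3 and reached 0.30 without CD36- NK replicate 1. The count of members called, 3, was 4 with DESeq2, which added Cd5l, and 4 with no fold threshold, which added Maf. It ran from 0 to 5 when 1 library was left out. The count of all genes called, 880, was 1143 with DESeq2, 1552 with no fold threshold, and ran from 417 to 1160 when 1 library was left out, with 418 without CD36+ NK replicate 2, 451 without CD36+ NK replicate 3, 417 without CD36- NK replicate 1 and 431 without CD36- NK replicate 3. Without CD36- NK replicate 2, 708 genes were called higher, against 440, and without CD36- NK replicate 1, 94. Each such fit had fewer samples, and more genes than in the full fit were called without CD36+ NK replicate 1 (1122) and without CD36- NK replicate 2 (1160). The cause of these shifts was not tested.

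With the replicate number of the titles as a replicate block, 1 member was called (Treml4), and 560 genes in all, 542 of them also called without it. Csf1r then had an edgeR adjusted p of 0.0727, Adgre1 one of 0.0747 and Maf one of 0.0653. The deviations of samples with the same number correlated at 0.310, 0.0515 and -0.0837, so the numbers were not taken to pair the samples. The fit of Clec4f and Vsig4 without CD36+ NK replicate 2 was chosen after seeing the data. With 3 libraries a group, a permutation test of a single value could not go below 0.1, and levels under 3 counts could not be measured.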

Other observations

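Lists of other cells were read for the same libraries, as values with no test of a list. Of all tested genes 2.98% were higher DEGs and 2.98% lower, and 5.07% were higher on the adjusted p at any fold. In 17.0% every CD36+ NK library lay above every CD36- NK library. T cell genes summed to 338 CPM in CD36+ NK replicate 1 and to 32.7 to 58.2 CPM in the other 5 libraries. Of 8, Cd4 and Cd8a were higher DEGs and 6 were not called. Cd3e, Cd3d, Cd3g and Lat were highest in CD36+ NK replicate 1, but lower in CD36+ NK replicates 2 and 3 than in any CD36- NK library. Cd3d was at 35.3, 1.32 and 1.33 CPM in CD36+ NK replicates 1 to 3, and at 5.53 to 7.52 CPM in CD36- NK. Erythroid genes summed to 349.7 to 796 CPM in CD36+ NK and 76.4 to 171 CPM in CD36- NK, with 5 of 8 higher DEGs. B cell genes summed to 4712 to 5219 CPM in CD36+ NK and 3045 to 3518 CPM in CD36- NK, with 1 of 8 a higher DEG, 6 of 8 higher on the adjusted p at any fold and 7 of 8 not overlapping between the groups. Conventional dendritic cell genes had 2 higher DEGs (Xcr1 and Clec9a) and 1 lower (Itgax) of 9. Of 6 plasmacytoid dendritic cell genes 0 was called by edgeR, and their sums were 520.1 to 596 CPM against 367 to 465 CPM. Hepatocyte genes summed to 11.3 CPM in CD36+ NK replicate 2 and to 3.29 CPM or less elsewhere, and none passed the filter on low counts. The part of these cells' RNA in the values of the 9 genes was not tested.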
